A study of Mus musculus with 12 samples.

Results

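The type II hair shaft keratins are the basic keratin chains of the hair itself, and were followed here as the rows for Krt81, Krt82, Krt83, Krt84, Krt85 and Krt86. All 6 symbols were found among the 18505 genes of the expression table, and all 6 passed the filter on low values that left 15288 genes for testing. The 12 samples were skin from the backs of male BALB/c mice of WT genotype, collected on day 10, with 4 samples per group. The study's methods give the mice as 5 to 6 weeks old when provided, and do not state their age at collection. The Control group is labelled "white space handling" and, per the study's methods, was coated with petroleum jelly. The IMQ + NS group received imiquimod (IMQ), a cream that activates a Toll-like receptor and gives a psoriasis-like lesion, for 6 h daily, followed by a cover of saline (NS) under gauze and film. The IMQ + BZLF group received the same cream, followed by Banzhilian formula (BZLF), a botanical preparation, under the same cover. The BZLF dose of the sequenced samples is not given in the sources used here. The backs of all mice had been shaved before treatment. The petroleum jelly was not described as covered, so imiquimod and the cover cannot be told apart in a comparison with Control. No source says whether the 4 samples of a group came from separate mice, so p-values measure the spread between these samples.

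A hair is built by the follicle only while it grows. Cells divide in the matrix at its base and move upward, and on the way they switch on keratins in a fixed order before they harden into the shaft. Each keratin filament pairs a type I (acidic) with a type II (basic) chain. Krt85 is the first type II chain to appear, in the matrix and the lower precortex. Krt82 is a keratin of the cuticle, the outer cell layer of the shaft. Krt81, Krt83 and Krt86 are made higher up, in the hardening cortex, and mutations in their human counterparts cause monilethrix, a disorder with beaded, fragile hair. Krt84 is known better from the papillae of the tongue and from nail than from hair. Around the shaft lies the inner root sheath, which has keratins of its own.

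All values are FPKM (fragments per kilobase of transcript and per unit of library size), a level that is scaled to transcript length and to depth. The summed FPKM of a sample ranged from 444660 to 506622, and 16649 to 16941 genes were above 0; the read depth behind a single value is unknown. Markers of the interfollicular epidermis, 10 of 10 in the table, summed to between 2297 and 8335 FPKM, and none was at 0 throughout a group. Control replicate 2 (Control 2) stood apart from the other controls in follicle and cell cycle genes, and the changes of the members and the counts of the lists against Control are therefore given with and without it. Control 2 and IMQ + BZLF replicate 2 also carried transcripts of seminal vesicle genes, a tissue foreign to skin, at summed FPKM of 41.2 and 40.5, against 0.0441 or less in each of the other 10 samples. Pancreas genes summed to 22.1 to 243 FPKM in Control, 2.10 to 261 FPKM in IMQ + NS and 20.7 to 236 FPKM in IMQ + BZLF samples. The lowest sum of each group was in replicate 4. In replicates 1 to 3 the sums were 220, 243 and 243 FPKM in Control and 210, 236 and 226 FPKM in IMQ + BZLF samples. In IMQ + NS replicates 1 to 3 they were 51.3, 61.1 and 261 FPKM.

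In the annotation of the mouse genome (GENCODE, GRCm38, the same assembly as mm10), 5 of the members lie close together on chromosome 15 and each has 9 exons. Krt81 occupies chr15:101459061-101463751 on the minus strand, and Krt86 follows at chr15:101473478-101479986 on the plus strand. Krt83 lies at chr15:101485130-101491512, Krt84 at chr15:101525026-101532820 and Krt82 at chr15:101541214-101550667, all on the minus strand. The coding sequences of the cortex chains were close copies. Over the whole alignment of the coding sequences, gaps included, Krt81 matched Krt83 at 93.2% and Krt86 at 92.9% of positions. Krt83 matched Krt86 at 91.4%. Krt82 and Krt84 were less alike, matching Krt81 at 65.7% and 57.5% of positions on the same measure. Gaps count as mismatches, so a difference in length lowers the share. The coding sequence has 1809 bases in Krt84 and 1548 in Krt82, against 1443 in Krt81. The lower figure for Krt84 than for Krt82 therefore cannot by itself show that its bases differ more. The position and sequence of Krt85 were not analysed here. The likeness of the cortex chains bears on the measurements, since a read from a stretch that is identical in several genes cannot by itself be placed in one of them.

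Of all stretches of 100 bases in the transcript, 29.0% in Krt81, 24.6% in Krt86 and 5.43% in Krt83 occurred unchanged in at least one other gene, in each case another of these 3 or the neighbouring hair keratin Krt87. For Krt82 and Krt84 the share was 0. An example is a run of 134 coding bases in exons 6 and 7 that was the same, letter for letter, in Krt81 (chr15:101460325-101460734, minus strand), Krt83 (chr15:101487174-101487583, minus strand) and Krt86 (chr15:101476863-101477271, plus strand), with the intron between these exons left out.
Krt81, Krt83 and Krt86, exons 6 and 7: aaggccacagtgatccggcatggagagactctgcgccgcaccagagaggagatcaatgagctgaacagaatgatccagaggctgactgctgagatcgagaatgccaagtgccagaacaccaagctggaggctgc
In contrast, the end of the coding sequence in exon 9 tells them apart. The 60 bases in which they differed most are given next, 5′ to 3′, from Krt81 (chr15:101459459-101459518, minus strand), Krt83 (chr15:101485439-101485498, minus strand) and Krt86 (chr15:101479431-101479490, plus strand). Capitals mark the 27 positions at which the 3 genes did not all carry the same base.
Krt81, exon 9: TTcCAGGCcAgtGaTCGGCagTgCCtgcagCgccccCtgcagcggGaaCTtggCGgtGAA
Krt83, exon 9: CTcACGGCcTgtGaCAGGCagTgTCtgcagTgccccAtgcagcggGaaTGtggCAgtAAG
Krt86, exon 9: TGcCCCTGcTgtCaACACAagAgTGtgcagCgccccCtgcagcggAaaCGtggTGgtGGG
The sources name different counting tools, so how shared reads were divided is not known. The study's methods give paired reads, whereas the shares of stretches above take no account of a mate outside the stretch. The near-equal values of Krt81, Krt83 and Krt86 reported in the following paragraphs are uncertain to that extent.

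Imiquimod with saline cover raised all 6 members by large factors, and none was left near its level in Control skin. In the IMQ + NS group the members together reached a summed FPKM of 3149 to 4658, against 6.72 to 117 in the Control group. Each was called higher (adjusted p below 0.05 by limma over all genes and a change of more than 1 on the log2 scale), and in each the lowest IMQ + NS sample lay above the highest Control sample. Over all 15288 genes tested, 11.4% were called higher and 23.7% were higher without overlap. On log2(FPKM + 0.1), the scale of every fold change given here, the median change of the members was 7.77, against 0.053 over all genes tested. Without Control 2 all 6 were called as well, and the median of the members was 8.49. In whole skin, a change in the number of cells of a type and a change in RNA per cell cannot be told apart.

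Krt85, the chain of the matrix and precortex, was at 5.20, 94.0, 0.829 and 0.706 FPKM in Control replicates 1 to 4. In the IMQ + NS samples it was at 448, 449, 369 and 598 FPKM. The groups did not overlap, but the controls spread over more than 100-fold and Control 2 was far above the rest. The log2 fold change was 6.71 ± 1.33 (SE, n = 4 per group; limma, adjusted p = 0.00286). Without Control 2 it was 8.18 ± 0.60 (limma, adjusted p = 1.1e-05), so the size and the error of the change rested largely on this 1 sample. Without Control replicate 3 or 4 it was 5.96 and 5.89.

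Krt82, the cuticle chain, was at 0.381, 3.93, 0.0852 and 0.159 FPKM in the Control samples. It was at 90.7, 71.3, 58.9 and 101 FPKM in the IMQ + NS samples. Here too Control 2 was the highest control and the groups did not overlap. The values of Control replicates 3 and 4 were close to the constant of 0.1 added before taking logs, so the log2 fold change depends on it. The ratio of the group means was 70.7-fold, and 386-fold without Control 2. The log2 fold change was 7.16 ± 0.84 (SE, n = 4 per group; limma, adjusted p = 1.9e-04), and it was 8.11 ± 0.32 without Control 2 (limma, adjusted p = 5.5e-07).

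The cortex chains showed the largest changes on the log2 scale. Krt81 was at 3.41, 6.03, 1.87 and 1.79 FPKM in Control and at 1283, 882, 1102 and 1362 FPKM in IMQ + NS samples. Krt83 was at 3.06, 7.87, 2.10 and 2.36 FPKM in Control and at 1254, 920, 1095 and 1338 FPKM in IMQ + NS samples. Krt86 was at 3.33, 5.14, 2.11 and 1.52 FPKM in Control and at 1220, 818, 1039 and 1249 FPKM in IMQ + NS samples. In all 3 genes IMQ + NS replicate 2 was the lowest of its group and Control 2 the highest control, at a level far below any lesion sample. The log2 fold changes were 8.58 ± 0.36 for Krt81, 8.38 ± 0.37 for Krt83 and 8.56 ± 0.33 for Krt86 (SE, n = 4 per group; limma, adjusted p = 5.6e-07, 7.7e-07 and 3.8e-07). As ratios of group means these were 353-fold, 299-fold and 357-fold. Without Control 2 the log2 fold changes were 8.92, 8.79 and 8.85, and the ratios of means were 491-fold, 460-fold and 465-fold.

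Krt84, the chain of tongue papillae and nail, stayed the lowest member in every group but rose with the others. It was at 0.117, 0.117, 0.0497 and 0.180 FPKM in Control samples, close to the constant of 0.1 that was added before taking logs. It was at 13.6, 8.03, 10.004 and 9.36 FPKM in IMQ + NS samples, without overlap. The log2 fold change was 5.59 ± 0.23 (SE, n = 4 per group; limma, adjusted p = 5.2e-07), whereas the ratio of the group means was 88.4-fold. Without Control 2 these were 5.60 and 88.6-fold. With a constant of 1 the log2 fold change was 3.31, and with 0.01 it was 6.44, so the size of this change depends on the constant while its call does not. For every member the two-sided exact permutation test of IMQ + NS against Control gave p = 0.0286, the smallest value that 4 against 4 samples allow.

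**Figure D1:**
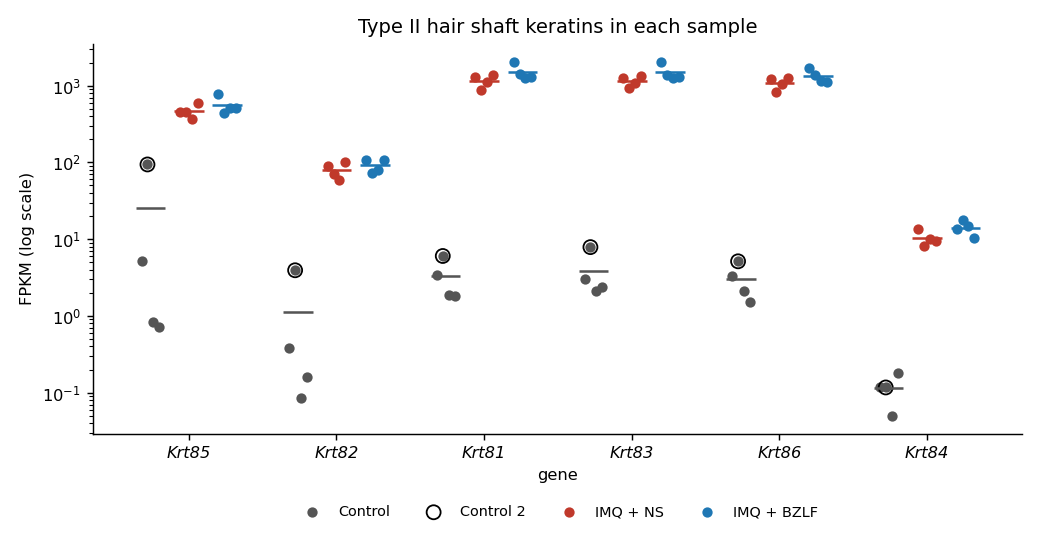
Level of each type II hair shaft keratin in each of the 12 samples. The vertical axis is FPKM on a log scale, each point is 1 sample, short lines are group means (n = 4), and open circles mark Control 2. All lesion samples lie above all Control samples for every gene, and Control 2 stands out at 94.0 FPKM for Krt85 and 3.93 FPKM for Krt82 but not for Krt84.

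Within the lesions the cortex chains lay highest and close together, and the order from Krt85 downward was fixed. In the IMQ + NS group the means were 1157 ± 213 FPKM for Krt81, 1152 ± 184 FPKM for Krt83 and 1082 ± 199 FPKM for Krt86 (SD, n = 4), and the ranges of these 3 overlapped. Krt85 followed at 466 ± 95.7 FPKM, then Krt82 at 80.6 ± 19.1 FPKM and Krt84 at 10.3 ± 2.38 FPKM (SD, n = 4), and here no neighbours overlapped. Thus the cortex chains were 2.32 times above Krt85 (Krt86 against Krt85), Krt85 was 5.79 times above Krt82, and Krt82 was 7.86 times above Krt84. The order from Krt85 downward was the same in the IMQ + BZLF group, again without overlap between neighbours. In the Control group the ranges of all neighbours in the order overlapped.

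Treatment with BZLF did not bring a detectable change in any member. In the IMQ + BZLF samples Krt85 was at 776, 435, 508 and 511 FPKM, and Krt82 was at 107, 72.7, 80.0 and 108 FPKM. Krt81 was at 2004, 1410, 1240 and 1285 FPKM. Krt83 was at 2052, 1363, 1265 and 1311 FPKM. These ranges overlapped those of the IMQ + NS group in all 4 genes, and IMQ + BZLF replicate 1 was the highest of all lesion samples for Krt81, Krt83, Krt85 and Krt86. Krt86 was at 1677, 1369, 1163 and 1110 FPKM. Krt84 was at 13.4, 17.9, 14.6 and 10.3 FPKM. They overlapped as well; over all genes tested, 4.24% were higher and 10.9% lower in IMQ + BZLF samples without overlap.

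Against IMQ + NS, 0 of the 6 members were called by limma in either direction, where 0.321% of all genes tested were called higher and 2.20% lower. At an unadjusted p below 0.05, without a fold limit, there was 1, Krt84. The log2 fold change of Krt84 was 0.45 (95% confidence interval 0.022 to 0.88; limma, adjusted p = 0.200). For the cortex chains it was 0.35 for Krt81 (interval -0.063 to 0.77; adjusted p = 0.293), 0.36 for Krt83 (interval -0.035 to 0.76; adjusted p = 0.259) and 0.30 for Krt86 (interval -0.087 to 0.68; adjusted p = 0.338). For Krt85 it was 0.25 (interval -0.19 to 0.68; adjusted p = 0.494), and for Krt82 it was 0.20 (interval -0.23 to 0.63; adjusted p = 0.581). All 6 estimates were above 0, and every upper bound was below 1, the size of a doubling. The two-sided exact permutation test gave p between 0.0857 for Krt84 and 0.429 for Krt82.

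Skin treated with imiquimod and BZLF therefore still differed from Control skin in every member. All 6 were called higher against Control without overlap, where 9.65% of all genes tested were called higher and 19.4% were higher without overlap. The log2 fold changes were 8.93 for Krt81, 8.75 for Krt83, 8.85 for Krt86, 6.95 for Krt85, 7.36 for Krt82 and 6.04 for Krt84 (limma, adjusted p at most 0.00274). Without Control 2 all 6 were still called, at 9.27 for Krt81, 9.15 for both Krt83 and Krt86, 8.43 for Krt85, 8.31 for Krt82 and 6.06 for Krt84. The other shaft genes behaved alike, with 9 of 9 type I hair keratins and 55 of 55 genes of keratin-associated proteins called higher, also without Control 2. Both comparisons with Control use the same 4 control samples.

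**Figure D2:**
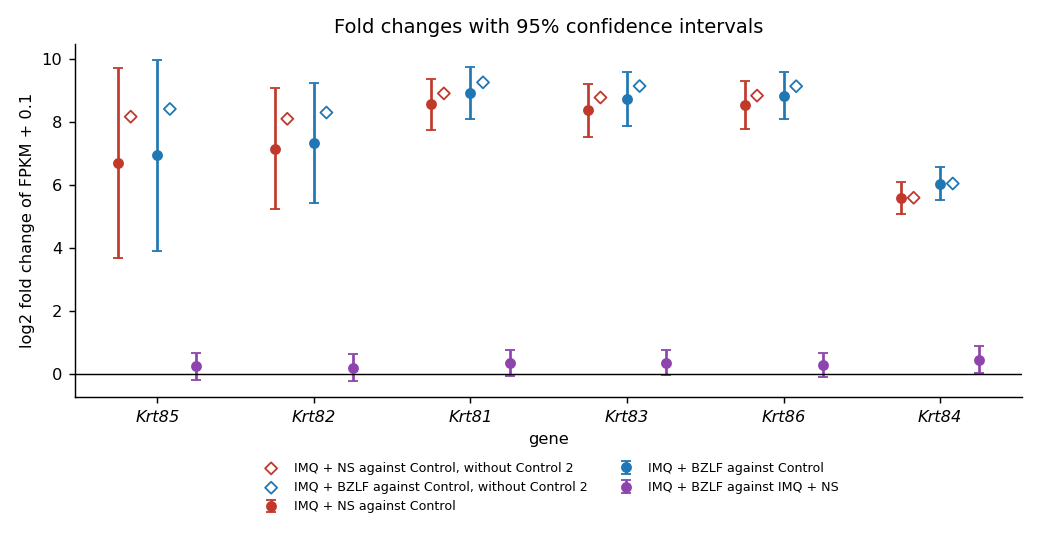
Fold changes of the 6 members in the 3 comparisons. The vertical axis is the log2 fold change of FPKM + 0.1, filled points are limma estimates with 95% confidence intervals (4 against 4 samples), and open diamonds are the estimates without Control 2. Changes against Control lie between 5.59 and 8.93 with wide intervals for Krt85 and Krt82, and changes of IMQ + BZLF against IMQ + NS lie between 0.20 and 0.45.

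Across the 8 lesion samples, Krt81, Krt83 and Krt86, the chains with shared reads, kept the steadiest proportions. Those of the other members varied more. Krt81, Krt83 and Krt86 together made up 83.2% to 88.7% of the summed FPKM of the 6 genes. The ratio of Krt83 to Krt81 ranged from 0.967 to 1.04 and that of Krt86 to Krt81 from 0.836 to 0.971. The ratio of Krt85 to Krt81 ranged from 0.309 to 0.509, and that of Krt82 to Krt81 from 0.0515 to 0.0841. Krt84 made up 0.201% to 0.384% of the sum. The members did not all rank the samples alike. In IMQ + BZLF replicate 2, Krt84 was the highest and Krt81, Krt83 and Krt86 the second highest of the 8 lesion samples, whereas Krt85 was the second lowest and Krt82 the third lowest. As a share of the whole FPKM of a sample, the 6 genes came to between 0.633% and 1.34% in the lesions and to between 0.00148% and 0.0263% in Control skin.

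Control 2 held a different mixture of the members from all other samples. It was the highest control for 5 of the 6, where 50.6% of all genes tested had their highest control value in this sample. The excess was uneven. Krt85, at 94.0 FPKM, was 18.1 times the highest of the other controls and reached 20.2% of the IMQ + NS mean. Krt82, at 3.93 FPKM, was 10.3 times the highest other control and reached 4.88% of the IMQ + NS mean. The cortex chains Krt83, Krt81 and Krt86 were 2.57, 1.77 and 1.54 times the highest other control and reached 0.683%, 0.521% and 0.475% of the IMQ + NS mean. Krt84, at 0.117 FPKM, lay within the range of the other controls. The early chain was thus raised in Control 2 by a larger factor than the cuticle chain, and the cuticle chain by a larger factor than the cortex chains. One sample allows no test.

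The same shift showed in the ratios. Krt85 made up 80.3% of the summed members in Control 2, against 9.32% to 14.3% in the lesions. Its ratio to Krt81 was 15.6 in Control 2, and 1.52, 0.443 and 0.394 in Control replicates 1, 3 and 4. The 3 cortex chains made up 16.3% of the sum in Control 2 and 63.3%, 86.3% and 84.4% in the other controls. In Control replicate 1, whose sum was 15.5 FPKM, Krt85 made up 33.5%, also above its range in the lesions. In Control replicates 3 and 4, whose sums were 7.04 and 6.72 FPKM, Krt85 made up 11.8% and 10.5%, within its range in the lesions. Krt84 made up 0.706% and 2.68% there, above its 0.201% to 0.384% in the lesions.

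The type I hair keratins, which pair with the members in the filament, moved in parallel. All 9 on the list (Krt31, Krt32, Krt33a, Krt33b, Krt34, Krt35, Krt36, Krt39 and Krt40) were called higher in IMQ + NS against Control, with a median log2 fold change of 7.68, and 9 of 9 also without Control 2 (median 8.02). Krt34 rose by a log2 fold change of 8.49 ± 0.38 and Krt35, like Krt85 an early chain of the matrix, by 6.20 ± 1.47 (SE, n = 4 per group; limma, adjusted p = 9.2e-07 and 0.00701). Without Control 2 the values were 8.82 and 7.85. Against IMQ + NS, 0 of 9 were called in IMQ + BZLF samples, with a median of 0.30. The summed FPKM of the 6 type II genes divided by that of the 9 type I genes lay between 0.958 and 1.03 in every lesion sample. In Control replicates 1 to 4 this ratio was 0.793, 0.582, 0.821 and 0.739, so in all 4 controls the type I sum was the larger. In Control 2 the type I chains were as uneven as the members. Krt35 stood at 149 FPKM, 42.4% of the IMQ + NS mean, whereas Krt31 was at 1.88% and Krt34 at 0.538%.

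**Figure D3:**
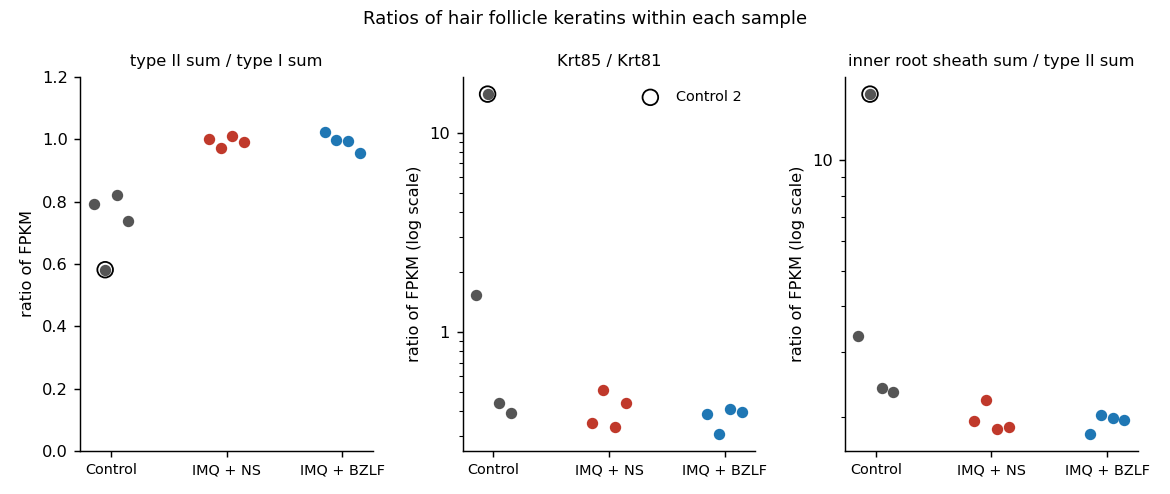
Ratios within each sample, with Krt75 left out of the inner root sheath sum. Each panel has the 3 groups on the horizontal axis and a ratio of FPKM on the vertical axis (linear in the first panel, log scale in the others), each point is 1 sample, and open circles mark Control 2. The ratio of the type II to the type I sum stays between 0.958 and 1.03 in the lesions, while Control 2 is lowest in that panel at 0.582 and highest for Krt85 over Krt81 (15.6) and for the inner root sheath sum over the type II sum (15.1).

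The keratins of the inner root sheath rose with the shaft. All 4 type I chains on the list (Krt25, Krt26, Krt27 and Krt28) and all 4 tested type II chains of the sheath and the companion layer (Krt71, Krt72, Krt73 and Krt75) were called higher in IMQ + NS against Control, also without Control 2. Krt71 reached 3090 ± 375 FPKM in IMQ + NS (SD, n = 4), a log2 fold change of 7.02 that was 8.61 without Control 2. The sheath sum, taken over these genes without Krt75, was 1.79 to 2.21 times the type II shaft sum in the lesions. It was 3.32, 2.40 and 2.33 times in Control replicates 1, 3 and 4, and 15.1 times in Control 2, in which Krt71 alone was at 638 FPKM. Against IMQ + NS, 0 of the 8 sheath and companion genes were called in IMQ + BZLF samples.

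Keratin-associated proteins, which cross-link the filaments in the cortex and cuticle, were far below the lesions in Control 2, though their sum was above the other controls. In the lesions their 56 genes in the table summed to 9.30 to 12.8 times the type II sum, and 55 of the 55 tested were called higher in IMQ + NS against Control, with a median log2 fold change of 8.51 (also 55 of 55, with a median of 8.90, without Control 2). Krtap7-1 reached 4692 ± 846 FPKM in IMQ + NS (SD, n = 4), Krtap8-1 reached 4597 ± 788 FPKM and Krtap15 reached 3013 ± 553 FPKM. They summed to 179 FPKM in Control 2, against 112, 84.0 and 71.5 FPKM in Control replicates 1, 3 and 4. Of the 56 genes, 39 (69.6%) had their highest control value in Control 2, against 50.6% of all genes tested. In Control 2 the sum was 1.53 times the type II sum. The median gene stood at 0.535% of its IMQ + NS mean, close to the levels of Krt81, Krt83 and Krt86. Against IMQ + NS, 0 of 55 were called in IMQ + BZLF samples, with a median of 0.31.

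Transcription factors of the hair matrix and shaft were higher in the lesions as well, by smaller factors. Of 11 tested, 9 were called higher in IMQ + NS against Control, and 10 without Control 2. Foxn1, the gene mutated in nude mice and needed for hair keratin expression, rose by a log2 fold change of 4.82 ± 0.39 (SE, n = 4 per group), and by 5.24 without Control 2. Hoxc13, a homeobox factor that binds promoters of hair keratins, rose by 4.11 ± 0.92, and by 5.17 without Control 2. Msx2, Lef1 and Dlx3 rose by 4.53, 3.23 and 3.81, and by 5.64, 4.17 and 4.75 without Control 2. Vdr rose by 2.40 and Dlx4 by 3.44, and by 2.99 and 4.41 without Control 2. Prdm1 rose by 2.15 and Foxq1 by 2.16. Msx1 (1.30; adjusted p = 0.112) and Gata3 (0.67) did not pass, Msx1 was called at 1.95 without Control 2, and Hoxc12 was too low to test. In IMQ + BZLF against IMQ + NS, 0 of 11 were called.

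Several of these regulators stood nearer to the lesions in Control 2 than Krt85 did. Hoxc13 was at 22.8 FPKM, 53.0% of the IMQ + NS mean, Msx2 at 43.0%, Dlx3 at 49.4% and Lef1 at 73.1%. Prdm1 at 25.7% and Foxq1 at 25.5% were little above the highest other control (2.09 against 1.90 FPKM and 4.33 against 3.73 FPKM), and Foxn1 was at 8.21%. Shh, the signal by which matrix cells drive follicle growth, was at 13.1 FPKM, 288% of the IMQ + NS mean, and its targets Ptch1 and Gli1 were at 238% and 270%. These 3 were the highest of the 11 hair matrix signals in this respect and were named after their values were seen. The list ranged from 14.9% to 288% with a median of 125%. Fgf5 was at 14.9% and Bmp2, at 30.2%, was below the other controls. All 12 cell cycle genes on the list had their highest control value in Control 2, at 106% to 151% of the IMQ + NS mean. As a result no cell cycle gene separated the lesions from the controls without overlap. For the list of hair matrix signals, 4 of 11 were called higher and 1 lower in IMQ + NS against Control, and 8 were higher without Control 2. For cell cycle genes 11 of 12 were called higher, and 12 without Control 2; in IMQ + BZLF against Control these counts were 4 and 12. The seminal vesicle transcripts seen in Control 2 were at the same level in IMQ + BZLF replicate 2, in which Krt85 was at 435 FPKM, the lowest of its group. The part of either in the levels of the members was not tested.

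**Figure D4:**
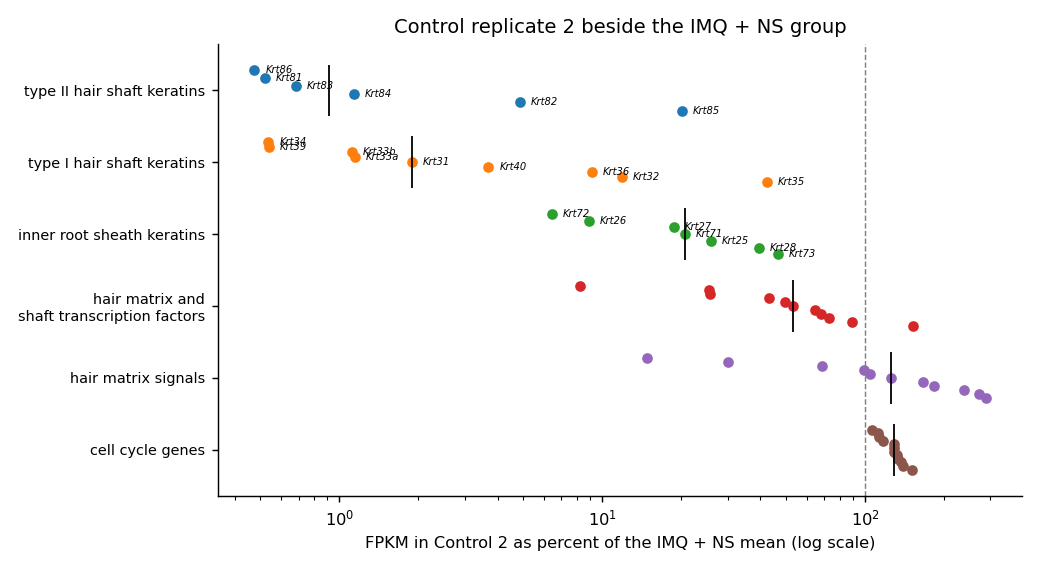
Control 2 beside the lesions, with Krt75 left out of the inner root sheath row. The horizontal axis is the FPKM in Control 2 as a percent of the IMQ + NS mean on a log scale, each point is 1 gene, rows are gene lists, black lines are list medians, and the dashed line marks 100%. The cortex chains Krt81, Krt83 and Krt86 lie below 0.7%, Krt85 at 20.2% and Krt35 at 42.4%, and the cell cycle genes lie at 106% or more.

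Other cell types of the skin moved between Control and lesion, too. For scale, 1740 of all 15288 genes tested were called higher and 1678 lower in IMQ + NS against Control. Skeletal muscle genes summed to 4478 to 11051 FPKM in Control and to 786 to 1924 FPKM in IMQ + NS samples, and 11 of 11 were called lower. Adipocyte genes summed to 4323 to 9415 FPKM in Control and to 2128 to 3335 FPKM in IMQ + NS samples, and 6 of 10 were called lower. Of the sebaceous gland genes 4 of 8 were called lower, and of the melanocyte genes 6 of 10 were called higher. Of the bulge stem cell genes 2 of 8 were called higher and 2 lower. Of the interfollicular epidermis genes 8 of 10 were called higher and 1 lower. None of the pancreas (10 tested) and seminal vesicle genes (7 tested) was called by limma in this comparison. Of the tested nail and tongue papilla genes, Krt84 and Krt36, both were higher, and the other 3 on that list were too low to test. Without Control 2 the counts were 11 of 11 muscle and 7 of 10 adipocyte genes lower, 5 of 8 sebaceous gland genes lower, 7 of 10 melanocyte genes higher, 3 bulge genes higher and 2 lower, and 8 epidermis genes higher and 1 lower. The part of these shifts in the rise of the members was not tested.

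Along the chromosome, the rise was not shared by every gene of the keratin cluster. Of the 12 tested type II keratins of other epithelia, 6 were called higher and 1 lower in IMQ + NS against Control, with a median log2 fold change of 1.26 (6 and 1 without Control 2, with a median of 1.07). Near Krt81, on the side away from Krt86, lies Krt87, another hair keratin that is not on the list of members, and it rose by a log2 fold change of 7.96 (8.63 without Control 2), with the same doubt about shared reads. On the other side, next to Krt82, Krt90 rose by 3.87 (4.64 without Control 2) and Krt75 by 4.72 (5.64 without Control 2). The wound keratins Krt6a and Krt6b rose by 5.51 and 7.62, and Krt77, a keratin of the sweat gland duct and adult epidermis, fell by 7.40 on the log2 scale. Without Control 2 the log2 fold changes of Krt6a, Krt6b and Krt77 were 5.79, 7.79 and -7.68. These 6 genes were named after their values were seen. In IMQ + BZLF against IMQ + NS, Krt6b fell by 4.42 and Krt6a by 2.39 on the log2 scale and Krt77 rose by 3.27 (limma, adjusted p = 8.8e-04, 0.00167 and 0.00354), whereas no member, no type I hair keratin and not Krt87 was called.

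**Figure D5:**
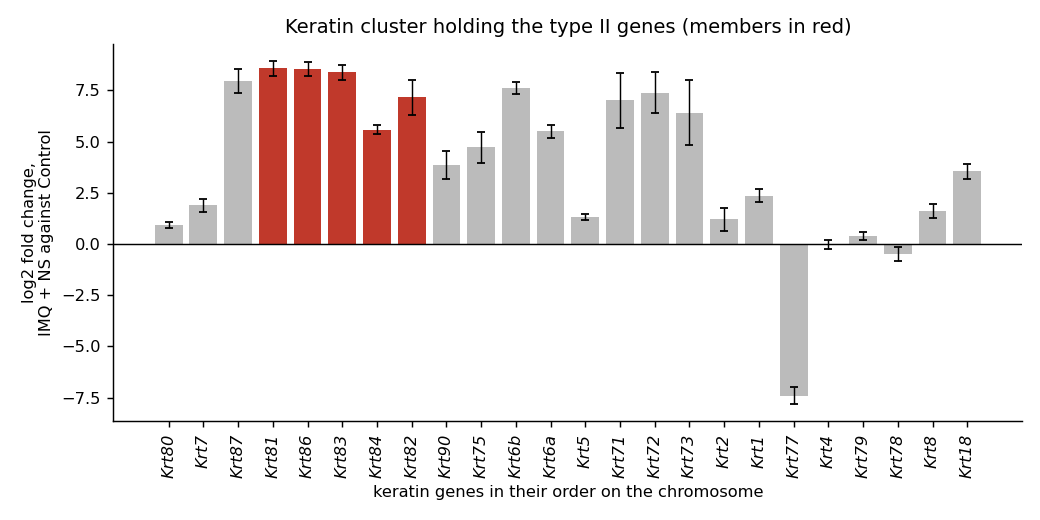
Keratin genes in their order on the chromosome. Bars are the log2 fold change of IMQ + NS against Control for each tested gene with its standard error (4 against 4 samples), members are in red, and distances are not to scale. The red bars are Krt81, Krt86, Krt83, Krt84 and Krt82, between Krt87 and Krt90, with changes of 5.59 to 8.58.

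The genes most like the members in their pattern over all 12 samples included hair keratins and keratin-associated proteins. By Pearson's r with the mean log2(FPKM + 0.1) of the 6 members, the leading 10 were Krt87 (r = 0.9997), Krt33b, Krt31, Krt33a, Gm10318, Gm3285, Gprc5d, Krtap13-1, Krtap11-1 and Psors1c2 (r = 0.9985). Such values are set mainly by the gap between the 8 lesion and the 4 Control samples, and are a description of the pattern only.

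Since the members rose together, the sequence before the start of transcription was looked at for Krt82 and Krt84, the 2 members with a promoter window in the RefSeq table (GRCm38.p6). The 250 bases before the start are given for Krt82 (chr15:101550660-101550909, minus strand) and Krt84 (chr15:101532821-101533070, minus strand), 5′ to 3′. Capitals mark the longest run that both windows held.
Krt82, before the start: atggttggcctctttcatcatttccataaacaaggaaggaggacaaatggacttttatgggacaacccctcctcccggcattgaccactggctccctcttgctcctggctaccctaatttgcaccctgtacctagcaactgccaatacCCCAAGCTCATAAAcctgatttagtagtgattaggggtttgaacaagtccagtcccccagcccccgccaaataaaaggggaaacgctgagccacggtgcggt
Krt84, before the start: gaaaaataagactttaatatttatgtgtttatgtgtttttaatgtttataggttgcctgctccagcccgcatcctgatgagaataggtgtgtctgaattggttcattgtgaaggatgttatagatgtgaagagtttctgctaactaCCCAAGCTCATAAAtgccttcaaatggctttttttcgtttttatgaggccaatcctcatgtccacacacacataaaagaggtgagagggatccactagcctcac
The shared run, cccaagctcataaa, is 14 bases long and begins 102 bases before the start of Krt82 and 104 bases before that of Krt84. Searched on both strands, it occurred in 2 of the 32851 promoter windows of 300 bases in the table, which are these. It was looked for after the sequences had been seen. Of the motifs chosen for the search, CCAAT was found in Krt82 at 109 bases before the start, and in Krt84 at 56 bases and, on the other strand, at 154 bases before it. TATAAA was found on the other strand in Krt84 at 206 bases before the start. CTTTGAA was found in neither window. On either strand, CCAAT occurred in 37.4%, TATAAA in 13.6% and CTTTGAA in 5.14% of all windows. These matches describe letters only.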

How the data were processed

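Total RNA of back skin was sequenced in 12 samples (4 each of Control, IMQ + NS and IMQ + BZLF). The authors deposited 1 table of FPKM values with 1 value per gene and sample, not on a log scale and not pooled. The study's methods name alignment with Bowtie2 and quantification with eXpress, whereas the submitters' processing notes list fastp, HISAT2, HTSeq, R 3.2.0 and mm10. The order and versions of the other tools are not given in the sources used here. The descriptions also differ in the RNA extraction and library kits, so strand was not relied on. Of 8657 low values, 23.9% were whole multiples (to within 0.05) of the least value seen for the gene, so counts were not rebuilt and the depth behind a value is unknown. No 2 samples held identical values (0 pairs).

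Groups were taken from the sample labels. Genes with a mean of at least 0.1 FPKM over the 12 samples (15288 of 18505) were tested as log2(FPKM + 0.1) with limma 3.58.1 (R 4.3.3; lmFit and eBayes with trend), separately for each pair of groups, with Benjamini-Hochberg adjustment over all genes tested. Calls needed an adjusted p under 0.05 together with a change beyond 1 on the log2 scale. The script was tested on simulated data. The constant of 0.1 understates changes of low genes. For each member an exact permutation test, two-sided, ran through all 70 assignments of samples (scipy 1.17.1). Sums, shares and ratios were described without a test. Named genes were the members, the type I hair keratins, the hair transcription factors, at most 3 genes of each other list by mean FPKM, 3 Krtap genes and the 10 genes most correlated with the members; the inner root sheath and companion layer keratins in full, further genes of the keratin cluster and Shh, Ptch1, Gli1, Fgf5 and Bmp2 fall outside this rule and were chosen after their values were seen. The members and all lists were chosen with earlier results of these data known. Sequences came from GENCODE transcripts on GRCm38 and the RefSeq promoter table, and figures from matplotlib 3.10.9. Alternatives were other constants, filters, scalings, moderation settings, thresholds, a replicate block and leaving out samples.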

Additional observations from a re-analysis of the deposited data

Results flagged for a closer look

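Within each group of 4 samples, a sample was singled out where its gap to the nearest other sample took up more of the range of the group than Dixon's test allows at 95%. Chance alone singles out about 1 in 20 groups, and the genes listed are not independent of each other. Control 2 was singled out as the high sample for Krt85 (94.0 FPKM), Krt82 (3.93 FPKM) and Krt83 (7.87 FPKM) and for the sum of the members (117 FPKM). The same held outside the members for Krt35 (149 FPKM), Krt31 (9.65 FPKM), Krt71 (638 FPKM), Hoxc13 (22.8 FPKM), Shh (13.1 FPKM) and Mki67 (23.7 FPKM). It also held for the ratios of Krt85 to Krt81 (15.6), of Krt82 to Krt81 (0.651) and of the inner root sheath sum to the type II sum (15.1). IMQ + BZLF replicate 1 was singled out as high for Krt83 (2052 FPKM) and for the sum of the members (6629 FPKM), and IMQ + NS replicate 3 for Mki67 (24.7 FPKM).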

How the results depend on the processing

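For the members, the calls did not depend on the processing: 6 of 6 were called higher in both comparisons with Control and 0 of 6 in IMQ + BZLF against IMQ + NS under every alternative run, which included leaving out each sample in turn. The counts over all genes moved by more than 1.5 times in these cases. With a constant of 1, the count lower in IMQ + NS against Control was 1023, the counts in IMQ + BZLF against IMQ + NS were 17 higher and 188 lower, and those in IMQ + BZLF against Control were 979 and 865. Without the fold limit the counts were 4427 and 4142, 195 and 791, and 3640 and 4458 for these comparisons. With unadjusted p-values and the same fold limit, which Krt84 did not reach, 88 genes were higher in IMQ + BZLF against IMQ + NS, where the main count was 49. In the same comparison that count ranged from 19 (without IMQ + BZLF replicate 2) to 78 (without IMQ + BZLF replicate 1) when a sample was left out, with 25 without IMQ + NS replicate 3 and 29 without IMQ + NS replicate 4. Over the samples left out, the log2 fold change of Krt85 in IMQ + NS against Control ranged from 5.89 to 8.18 and that of Krt82 from 6.63 to 8.11. Scaling to equal sums moved the median of all genes in IMQ + BZLF against Control to -0.12. The groups share replicate numbers. Deviations of same-numbered samples correlated at -0.15 to 0.26, and the main fits did not take the numbers as pairs. The correlations ran from 0.11 to 0.26 for replicates 3 and 4 and from -0.15 to 0.094 for replicates 1 and 2. The pancreas sum was lowest in replicate 4 of every group, and both samples with seminal vesicle transcripts were replicate 2 of their group. Whether samples of the same number shared handling was not tested. A fit with the replicate block called 6, 0 and 6 members higher and 1730 and 1684, 47 and 335, and 1457 and 1527 genes higher and lower, with an adjusted p of 0.00662 for Krt85 in IMQ + NS against Control. Leaving out both samples with seminal vesicle transcripts, an alternative chosen after seeing the data, also called 6 members higher in IMQ + BZLF against Control. FPKM without counts give no counting error for single values, and this limits what can be said of Krt84 and Krt82 in Control skin.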
